A study of Mus musculus with 2 samples.

Results

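Among the 8714 nuclei of the mouse vagus nerve ganglia, 106 carried the transcripts of fat cells. They were chosen by their own counts: the unique molecular identifiers (UMIs, each standing for a captured RNA molecule) of peroxisome proliferator-activated receptor gamma (*Pparg*), perilipin 1 (*Plin1*), adiponectin (*Adipoq*), *Cidec* and hormone-sensitive lipase (*Lipe*) had to sum to at least 5 in a nucleus and to at least 20 per 10000 of its UMIs. These are called adipocyte-type nuclei here, since RNA counts alone do not show whether the cells lay in the epineurium, the outer sheath of the nerve. Nuclei were taken from C57BL/6J mice that carry Cas9-eGFP at Rosa26, silent until Cre removes a floxed STOP, kept on standard chow and 8 to 9 weeks old when obtained. All of them, females and males alike, had received a retrograde adeno-associated virus with Cre (AAVrg-Cre) in the liver 4 weeks earlier. The ganglia of each sex were pooled into 1 library, 14 ganglia of 7 female mice and 16 ganglia of 8 male mice, so that library and sex cannot be told apart, and no difference between them has a replicate check.

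White adipocytes store triglyceride in a large lipid droplet and release fatty acids when lipolysis is switched on. Brown and beige adipocytes burn fatty acids for heat through uncoupling protein 1 (*Ucp1*), which lets protons back across the inner mitochondrial membrane without making ATP, and sympathetic nerves drive this through adrenergic receptors and cyclic AMP. PPARγ is the nuclear receptor that all of these cells need to form, and fat tissue lies around peripheral nerves.

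The female library held 79 adipocyte-type nuclei of 3791, or 2.08% (Clopper-Pearson 95% interval 1.65 to 2.59). The male library held 27 of 4923, or 0.548% (0.362 to 0.797). The share was higher in the female library by more than counting error, and the interval covers that error only. A nucleus had been given its sex from the library number in its barcode, because the numbers of nuclei match those stated for females and for males. The libraries shared 8 barcode sequences, and 0 of these marked an adipocyte-type nucleus.

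A female adipocyte-type nucleus held 1130 to 22344 UMIs with a median of 3607, and a male one 1866 to 16160 with a median of 3039. All other nuclei had medians of 2363.5 and 2652.5 UMIs in the female and the male library. The sums over the group were 361900 UMIs in females and 107742 in males, of library totals of 17435300 and 27529730, so that a male value rests on fewer molecules than a female one. Mitochondrial transcripts made up 1.56% of UMIs in female and 2.04% in male adipocyte-type nuclei, against 1.15% and 0.952% in all others.

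The summed level of the chosen genes ran from 22.78 to 129.1 UMIs per 10000, with a median of 54.37. All 5 genes had a UMI in 21 nuclei, 4 of them in 39, 3 in 31, 2 in 12 and only 1 in 3 nuclei. Just inside the threshold, 5 nuclei held 22.8 to 25 per 10000. Just outside it, 7 nuclei with enough UMIs held 15.3 to 19.9 per 10000, and 3 nuclei with 4 UMIs held 21.7 to 36.4. *Pparg* carried much of the choice: without it the same thresholds left 29 nuclei, 26 of them female.

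The choice itself used the markers of the label, so their levels describe the nuclei and do not test the label. *Pparg*, the receptor that drives fat cell formation, was at 38.5 per 10000 in the female and 38.1 in the male adipocyte-type nuclei, and at 0.389 and 0.205 in all other nuclei. *Plin1*, which coats the lipid droplet, was at 6.96 and 5.10, against 0.0603 and 0.0124 in the others. *Cidec*, which fuses lipid droplets, was at 3.62 and 3.90, against 0.0597 and 0.0153. Inside the group the libraries were at most 1.35-fold apart in these genes, a closeness that the common threshold on their sum favours. *Adipoq*, the hormone of mature fat cells, was at 1.19 and 1.02, against 0.0668 and 0.0113, and *Lipe*, which cleaves diglyceride, at 4.01 and 3.81, against 0.299 and 0.234. In the mm10 build *Pparg* lies on chr6:115360951-115490399 (plus strand), *Plin1* on chr7:79720218-79732903 (minus strand), *Adipoq* on chr16:23146536-23158028 (plus strand), *Cidec* on chr6:113424634-113435760 (minus strand) and *Lipe* on chr7:25379527-25398710 (minus strand).

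Markers of other cells were also counted, with 5 genes for each of 10 other types. Of the 106 nuclei, 29 passed the same thresholds for another type too: 15 for neurons, 6 for satellite glia, 3 each for Schwann and endothelial cells, 2 for macrophages and 1 each for fibroblasts, barrier fibroblasts and mural cells. No nucleus of the group passed for cerebellar granule or pituitary cells. The 5 neuronal genes summed to 9.26 per 10000 in female and 17.0 in male adipocyte-type nuclei, with *Uchl1* the most abundant, against 27.5 and 36.7 in all other nuclei. The satellite glia list was at 9.37 and 11.3, above the 8.14 and 7.56 of other nuclei, with the glial channel gene *Kcnj10* at 0 UMIs. The endothelial list was also higher, at 4.26 and 1.67 against 2.49 and 1.52, and the mural list at 1.91 and 1.11 against 1.17 and 0.849. The fibroblast list was lower in the female library (4.34 against 7.59) and higher in the male library (5.10 against 4.41). The Schwann and barrier fibroblast lists were lower in each library. The macrophage, cerebellar granule and pituitary lists were lower in the female library. In the male library these lists rest on 6, 0 and 4 UMIs, and their intervals held the level of the other nuclei. So did the male intervals of the endothelial, mural and fibroblast lists. The study removed likely doublets before deposit and no doublet caller was run here, so the values without these 29 nuclei, which leave 60 female and 17 male nuclei, are given for the gene lists and for some named genes where groups inside the adipocyte-type nuclei are compared.

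**Figure D1:**
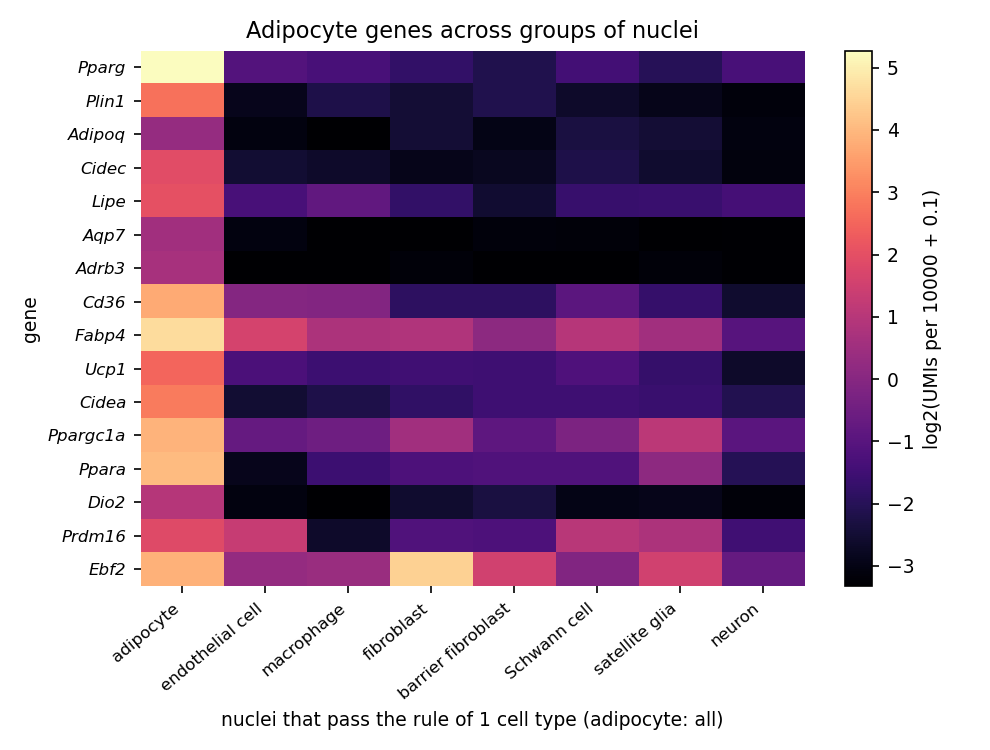
Levels of 16 adipocyte genes (rows) in 8 groups of nuclei (columns), as log2 of UMIs per 10000 with 0.1 added. The adipocyte column holds all 106 adipocyte-type nuclei and each other column the nuclei that passed the thresholds of that type alone; the first 5 genes chose the adipocyte-type nuclei, so their contrast is built in. *Ebf2* is the gene of this set that is higher in fibroblast nuclei, at 21.9 against 14.5 per 10000.

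Which genes set these nuclei apart was described against all 8608 other nuclei, from summed UMIs per 10000. Of 6178 genes with enough UMIs (20 seen, or 20 to be seen at the level of the other nuclei), 1114 (18.0%) were at least 2-fold higher and 1172 (19.0%) at least 2-fold lower in adipocyte-type nuclei, and the median log2 ratio over all of them was 0.10. The nuclei were chosen within this contrast, so its ratios are a description and no test was made.

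The highest ratios among protein-coding genes outside the chosen ones belonged to *Aqp7*, the channel through which glycerol leaves the fat cell (64 UMIs, 240-fold, log2 ratio 7.90, 95% interval 7.23 to 8.65), and to the beta 3 adrenergic receptor *Adrb3* (72 UMIs, 233-fold, 7.86, 7.24 to 8.55). *Adrb3* had a UMI in 48 of the 106 nuclei and was at 1.44 per 10000 in the female and 1.86 in the male group, against 0.00879 and 0.00511 in all other nuclei. The alpha 1A adrenergic receptor *Adra1a* was 121-fold higher, with a UMI in 76 nuclei. Both receptors for noradrenaline were thus well above the other nuclei in each library. *Slc27a2*, which activates fatty acids, was at a log2 ratio of 7.31, the transcription factor *Mlxipl*, which turns on lipid synthesis in response to glucose, at 6.81, and *Pck1*, whose enzyme supplies glycerol phosphate in fat cells, at 6.53. Of the 25 genes that led the comparison, others were *Cd36* and *Cpt1b*, which bring fatty acids into the cell and into mitochondria, *Dgat2*, which makes triglyceride, the lipase *Ces1d* and *Pdk4* (6.21 to 6.46), and the receptor *Lgr6* (6.65), *Adtrp* (128-fold) and *Kng2* (7.49). Several were noncoding or unnamed: *Gm3289* was the highest of all at 495-fold (117 UMIs, 48 nuclei), followed by *Gm35552* at 288-fold (68 UMIs, 40 nuclei), and *A530053G22Rik* and *Lncbate10*, a noncoding RNA known from brown fat, were at 214-fold and 173-fold. *Gm3289*, *Gm35552*, *Adrb3*, *Slc27a2*, *Dio2* and *Pparg* overlap genes on the opposite strand in the annotation, and *Kng2*, *Ces1d* and *Cpt1b* genes on the same strand, and no source used here states how reads of overlapping genes were assigned.

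The genes with the lowest ratios included *Dscam*, a neuronal adhesion gene, with 1 UMI in the group (0.0213 per 10000) against 1.86 per 10000 in other nuclei, and *Slc7a7*, an amino acid transporter, with 0 UMIs against 0.548 per 10000. *D130079A08Rik*, the lowest, had 1 UMI against 3.74 per 10000. The other genes of the 10 with the lowest ratios had 0 to 3 UMIs in the group.

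The letters ahead of the start sites were read from RefSeq (build GRCm38.p6) for the genes that carry the comparison. A promoter was found for 17 of the 25 leading genes and for 18 of the 25 genes of the thermogenic list, at 23 start sites each. The window was the 250 bases before the start, and both strands were searched for AGGTCA, the hexamer that nuclear receptors such as PPARγ bind in pairs, for TTGCNNAA, a C/EBP motif, and for the cyclic AMP response element TGACGTCA, with overlapping matches allowed. AGGTCA stood before 10 of the 23 start sites of the leading genes (43.5%), before 3 of the 23 of the thermogenic list (13%) and before 14.0% of all 32851 start sites. TTGCNNAA stood before 7 (30.4%), 2 (8.70%) and 9.56%, and TGACGTCA before 1 (4.35%), 1 (4.35%) and 1.55%. The 10 start sites with AGGTCA belong to 8 of the 17 leading genes, since a gene can have several starts. *Pparg*, *Plin1* and *Cidec*, which also chose the nuclei, are among the leading genes. Each of them had TTGCNNAA, and *Pparg* also had AGGTCA. A match is a run of letters, not a shown binding site. The windows of *Ucp1*, the gene that divides the group below, of *Dio2*, the thermogenic gene that differed most between the libraries, and of *Plin1*, with the highest ratio among the chosen genes, read 5′ to 3′ on the gene's strand as follows. Capitals mark AGGTCA in *Ucp1* (chr8:83290098-83290347, plus strand, 14 bases before the start), TGACGTCA in *Dio2* (chr12:90739039-90739288, minus strand, 95 bases before) and TTGCNNAA in *Plin1* (chr7:79732777-79733026, minus strand, 187 and 58 bases before). A match to TTGCNNAA in *Dio2* stays in lower case, and AGGTCA does not occur in the *Dio2* and *Plin1* windows. The RefSeq start of *Dio2* lies upstream of the gene as GENCODE draws it. That of *Plin1* lies inside its GENCODE gene, and so does the nearer part of its window, with the match at 58 bases.
Ucp1: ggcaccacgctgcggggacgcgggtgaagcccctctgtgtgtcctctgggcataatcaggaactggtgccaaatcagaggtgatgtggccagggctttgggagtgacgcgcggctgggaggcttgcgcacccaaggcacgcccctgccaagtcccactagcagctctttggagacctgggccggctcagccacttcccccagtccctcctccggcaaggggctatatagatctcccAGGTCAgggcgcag
Dio2: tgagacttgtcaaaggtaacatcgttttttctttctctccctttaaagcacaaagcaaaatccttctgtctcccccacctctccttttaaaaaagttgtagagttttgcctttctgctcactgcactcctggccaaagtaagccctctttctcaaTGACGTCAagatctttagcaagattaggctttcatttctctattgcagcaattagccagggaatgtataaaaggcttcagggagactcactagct
Plin1: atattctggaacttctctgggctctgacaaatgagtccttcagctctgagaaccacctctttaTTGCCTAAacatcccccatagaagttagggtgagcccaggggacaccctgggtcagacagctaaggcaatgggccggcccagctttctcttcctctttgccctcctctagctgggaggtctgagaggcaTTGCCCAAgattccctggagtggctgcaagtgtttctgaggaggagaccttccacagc

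The thermogenic genes were described as a list of 25, of which 22 had enough UMIs. All 22 were at least 2-fold higher in adipocyte-type than in other nuclei, and in each library by itself, with a median log2 ratio of 4.64 (2.40 to 7.31) beside 0.10 for all genes. Over all genes 18.0% were at least 2-fold higher. *Cidea*, a lipid droplet protein of brown fat, was 45.9-fold higher, with 7.71 per 10000 in female and 6.40 in male nuclei of the group. *Ppara*, a nuclear receptor for fatty acid oxidation, was 68.6-fold higher at 15.9 and 17.5 per 10000. *Ppargc1a*, the coactivator of mitochondrial biogenesis, was 23.1-fold higher at 17.9 and 5.48. The levels of *Cidea* and *Ppara* were close in the libraries and those of *Ppargc1a* were not, but without the nuclei of another type *Cidea* had 212 female and 34 male UMIs, a log2 ratio of 1.03. *Prdm16*, a factor of brown fat identity, was 5.87-fold higher than in all other nuclei, but was also present in endothelial nuclei (2.42 per 10000 against 3.58 in the group). *Ebf2*, another such factor, was 8.17-fold higher than in all others at 14.5 per 10000 and below the 21.9 per 10000 of fibroblast nuclei. The 3 members without enough UMIs were *Fgf21* with 0, the fatty acid elongase *Elovl3* with 2 and *Zic1*, a factor of classical brown fat, with 5 UMIs (0.106 per 10000 against 0.320 in other nuclei). Counts of 0 in the group allow up to 0.0639 per 10000.

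White adipocyte genes were described as a list of 15. Of these, 5 had enough UMIs (median log2 ratio 2.96), and 3 of the 5 were at least 2-fold higher, beside 18.0% of all genes. The 3 were *Fgf10* (log2 ratio 4.48), *Adam12* (3.04) and the natriuretic peptide clearance receptor *Npr3* (2.96). Leptin (*Lep*), the hormone of white fat, had 1 UMI, resistin (*Retn*) 5 UMIs in 4 nuclei, and *Hoxc8*, *Hoxc9*, *Hoxc10*, *Agt* and *Wt1* had 0. The neutral amino acid transporter *Slc7a10* had 17 UMIs in 7 nuclei. *Sncg*, listed here for white fat but also a neuronal gene, was lower in the group (4.28 against 8.03 per 10000).

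The machinery of lipid turnover was present in most of its parts. Its counts are read beside the 18.0% of all genes at least 2-fold higher and their median log2 ratio of 0.10. All 12 lipolysis and lipid droplet genes with enough UMIs, of 13, were higher (median log2 ratio 3.59), among them *Plin4* at 6.13 and *Plin5* at 5.22, which coat droplets, the triglyceride lipase *Pnpla2* at 3.42 and its inhibitor *G0s2* at 4.36. Of 21 lipid synthesis genes 17 were higher (median 2.87): *Dgat2*, which makes triglyceride, at 6.21, *Acacb* at 6.09 and *Acsl1* at 5.06, while *Acly* (0.18) and *Scd2* (-0.85) were not. Of 9 genes of lipid and glucose uptake 7 were higher (median 4.86), with *Cd36* at 13.3 and lipoprotein lipase (*Lpl*) at 12.7 per 10000 in the group against 0.168 and 0.213 elsewhere, and the fatty acid carrier *Fabp4* 31.7-fold higher. *Fabp5*, another carrier, was at least 2-fold lower (1.58 against 3.28).

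Of all genes 18.0% were at least 2-fold higher and 19.0% at least 2-fold lower, and the following counts stand beside these shares. Of 15 transcription factors of fat cells 13 were higher (median 2.45), such as *Cebpa* (4.41), *Cebpb* (3.58) and *Bcl6* (3.53). Insulin and adrenergic signalling genes were higher in 13 of 17 (median 3.30), with the phosphodiesterase *Pde3b*, which insulin uses to stop lipolysis, at 4.70, the kinase *Sik2* at 4.85, *Acvr1c* at 5.92 and the fatty acid receptor *Ffar4* at 7.01, and *Adcy5* was lower (-1.02). Mitochondrial oxidation genes were higher in 17 of 24 (median 2.06), led by the carnitine carrier *Slc25a20* (3.99), with *Cox5a* at 0.29 among those under 2-fold. Of 12 adipokine genes 5 had enough UMIs and 4 were higher (median 4.13), led by neuregulin 4 (*Nrg4*), which brown fat secretes, at 70.6-fold and 11.5 per 10000. Progenitor genes were not higher: 2 of 10 had enough UMIs, *Cd55* (-1.12) and *Fbn1* (-0.60), and *Pdgfra* had 6, *Cd34* 1 and *Dlk1* 0 UMIs. Among the uncoupling proteins *Ucp3* (4.96, 23 UMIs) was higher beside *Ucp1*, *Slc25a27* was lower (-1.47), and *Ucp2* had 5 UMIs.

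**Figure D2:**
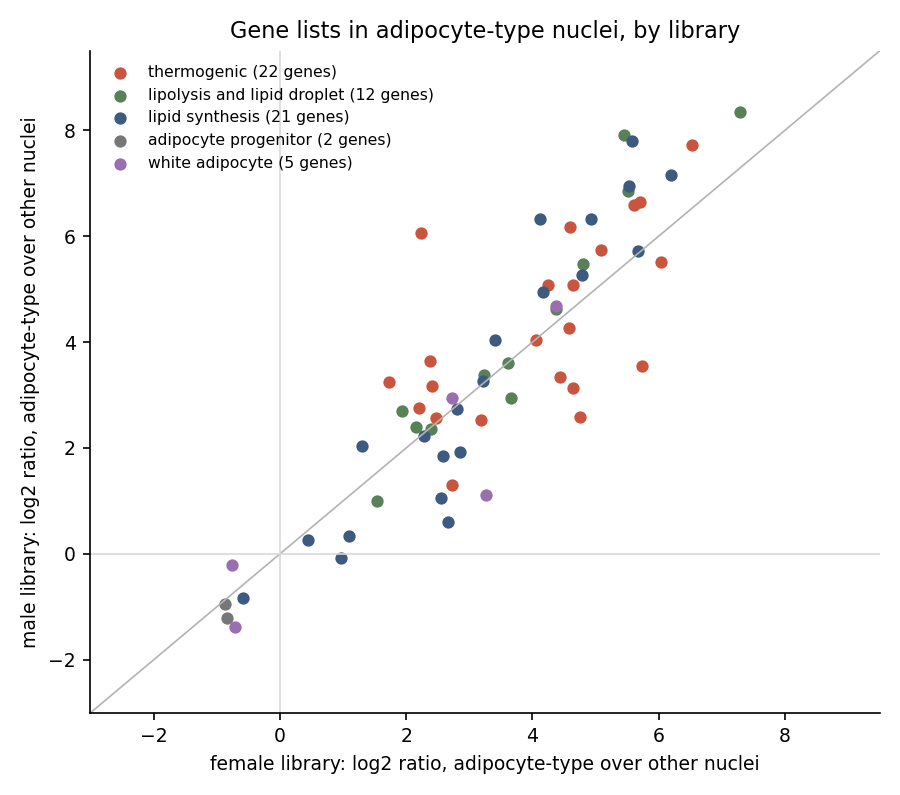
Log2 ratio of adipocyte-type over other nuclei in the female library (x axis) and in the male library (y axis), with 1 point per gene for 5 gene lists and the line of equal ratios. All 22 thermogenic genes lie at 2-fold or more in both libraries, as do 11 of 12 lipolysis and 16 of 21 lipid synthesis genes, and both progenitor genes with enough UMIs lie below 0 in each.

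Adipocyte transcripts were also more frequent in the other nuclei of the female library than in those of the male library, which bears on every ratio above. The 5 chosen genes summed to 0.876 per 10000 in female and to 0.478 in male nuclei outside the group. For *Fabp4* the levels there were 1.66 and 0.245, and for *Plin1* 0.0603 and 0.0124. Ratios to other nuclei were accordingly often lower in the female library, as for *Plin1* (6.85 against 8.68) and *Fabp4* (3.95 against 6.54), although levels inside the group were alike. The part of free RNA in this was not tested.

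*Ucp1* was not among the genes of the choice. It lies on chr8:83290352-83298452 (plus strand) and had 263 UMIs in the 106 nuclei, 5.60 per 10000 (exact Poisson 95% interval 4.94 to 6.32), against 0.121 in all other nuclei. A UMI was found in 58 nuclei, 54.7% (44.8 to 64.4), which was 30.2% after each nucleus was thinned to 1000 UMIs. In all other nuclei 5.37% had a UMI, and 2.05% of those deep enough did after thinning. This background lay mostly in the female library, where 11.2% of all other nuclei, 11.3% of neurons (median 3608 UMIs), 11.2% of endothelial nuclei (2397) and 7.63% of fibroblasts (2020.5) had a UMI. In the male library it was 0.919% of all others and 1.02% of neurons (4129).

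By library, 52 of 79 female nuclei had a *Ucp1* UMI, 65.8% (54.3 to 76.1), and 6 of 27 male nuclei, 22.2% (8.62 to 42.3). Thinned to 1000 UMIs, the shares were 35.4% and 14.8%. The levels were 6.91 per 10000 in females (250 UMIs, 6.08 to 7.82) and 1.21 in males (13 UMIs, 0.642 to 2.06), 5.52-fold apart (log2 ratio 2.47, 1.72 to 3.45). The intervals of the levels do not overlap. Outside the group *Ucp1* was at 0.287 per 10000 in female nuclei and at 0.0171 in male nuclei, 16.7-fold apart, a larger ratio than inside, so that the sign turned (-1.59) when the log2 ratio in other nuclei was subtracted. At those outside levels the female group would hold 10.4 UMIs in 9.42 nuclei, where 250 in 52 were seen, and the male group 0.185 UMIs. Without the 29 nuclei that passed for another type, 164 female and 4 male UMIs remained, and the log2 ratio was 3.59.

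Within the group *Ucp1* spread widely. Of the 79 female nuclei 27 had 0 UMIs, 8 had 1, 20 had 2 to 3, 17 had 4 to 9 and 7 had at least 10, up to 21. Of the 27 male nuclei 21 had 0, 2 had 1, 3 had 2 to 3 and 1 had 4. The highest level in a female nucleus was 30.5 per 10000 and in a male nucleus 9.33. Of the 5 nuclei just inside the threshold 3 had *Ucp1*, as did 5 of the 7 just under it and 1 of the 3 with 4 UMIs.

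**Figure D3:**
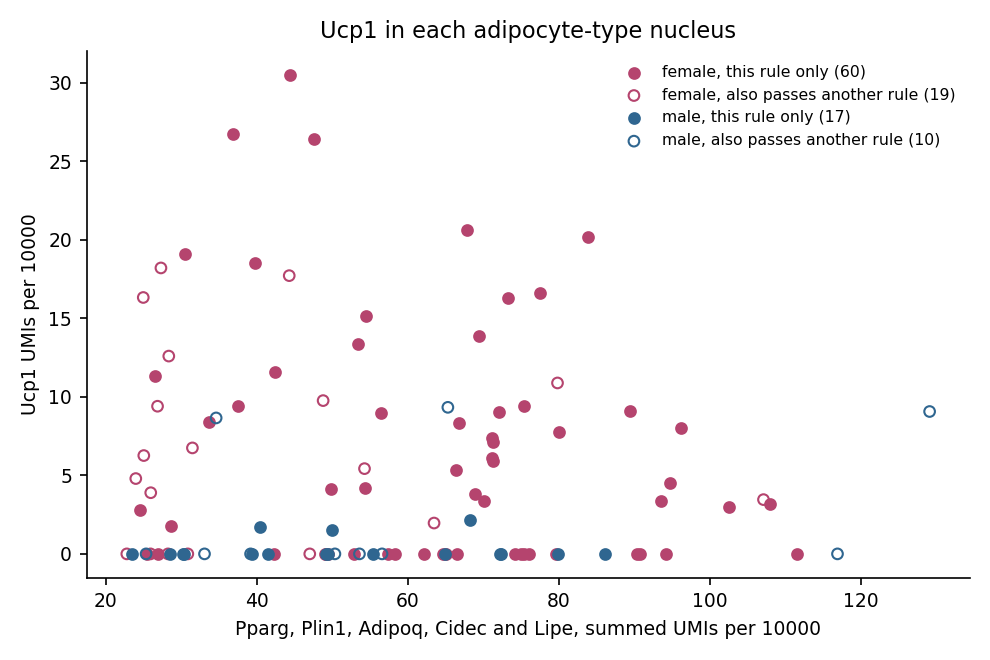
Each point is an adipocyte-type nucleus, with the summed level of the 5 chosen genes (x axis) and the level of *Ucp1* (y axis), both in UMIs per 10000; open points also passed the thresholds of another cell type. The highest female nuclei reach 30.5 per 10000, and the male nuclei stay at or below 9.33.

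The 58 *Ucp1*-positive nuclei (52 female, 6 male) were then set beside the 48 *Ucp1*-negative ones (27 female, 21 male). Of the other thermogenic genes 6 of 21 (28.6%) were at least 2-fold higher in positive nuclei, and the growth hormone receptor was at least 2-fold higher in negative nuclei. So were 3 of 21 lipid synthesis genes (14.3%), while 11.1% of all genes were 2-fold apart in either direction. The chosen genes were at a summed 55.1 and 51.5 per 10000. The depths had medians of 3975.5 and 2972.5 UMIs, and depth helps to decide which nuclei show a *Ucp1* UMI. Of the positive nuclei 17 and of the negative nuclei 12 passed for another type. The sexes were also unequally divided, so female values are given beside the pooled ones for the thermogenic list and for some genes.

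Of 5092 genes with at least 20 UMIs over both sets, 277 (5.44%) were at least 2-fold higher and 286 (5.62%) at least 2-fold lower in *Ucp1*-positive nuclei, with a median log2 ratio of -0.02. Of 21 thermogenic genes, *Ucp1* left out, 6 were at least 2-fold higher and 0 lower, 19 had a ratio above 0, and the median was 0.57 (-0.13 to 2.42), or 0.43 among female nuclei alone and 0.72 without the nuclei of another type, where 9 of the same 21 were at least 2-fold higher. The 6 were the proton channel gene *Otop1*, the cytochrome oxidase subunits *Cox7a1* and *Cox8b*, *Acot11*, *Letmd1* and *Slc27a2*.

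*Otop1* had 23 UMIs in 16 of the positive nuclei and 2 UMIs in 2 of the negative ones (5.35-fold, log2 ratio 2.42, 0.69 to 5.84). *Acot11*, a thioesterase of brown fat, had 46 and 8 UMIs (3.11-fold, 1.64, 0.61 to 3.01), and *Letmd1*, a mitochondrial protein, 32 and 6 (2.85-fold, 1.51, 0.32 to 3.15). *Cox8b* had 33 and 9 UMIs, with an interval that reached below 0 (2.01-fold, -0.03 to 2.31). All but *Cox8b* had intervals above 0, and these counts are small. *Dio2*, with 68 and 19 UMIs, lay just under the 2-fold mark, at 1.01 with 41 and 14 UMIs without the nuclei of another type, and at 0.29 among female nuclei alone. *Pank1*, which starts the synthesis of coenzyme A, was at 11.4 and 5.93 per 10000 (0.94, 0.62 to 1.28). *Gk*, the kinase that returns glycerol to lipid, was at 11.3 and 7.98 (0.49, 0.20 to 0.79) and *Ppargc1a* at 16.7 and 12.1 (0.46, 0.23 to 0.70), but among female nuclei alone their log2 ratios were 0.00 and 0.03. *Prdm16* (0.03), *Ebf2* (0.07) and *Esrra* (-0.02) lay near 0. Of 23 mitochondrial oxidation genes 22 had a ratio above 0, with a median of 0.42, and 0 were 2-fold apart in either direction. That count was 3 higher when the nuclei of another type were left out, with *Etfdh* at 1.41 (47 and 12 UMIs), *Sdhb* at 1.02 (24 and 8) and *Cs* at 1.01 (96 and 33). *Fabp4* was at 29.8 and 16.4 per 10000 (0.86, 0.67 to 1.06), *Cebpb* at 2.31 and 0.998 (1.18, 0.43 to 2.07) and the insulin-regulated glucose carrier *Slc2a4* at 1.07 and 0.411 (1.30, 0.17 to 2.80). Without the nuclei of another type *Cebpb* was at 0.98 and *Pank1* at 1.11, and *Pdk4* (0.91 with them) passed 2-fold. Among the remaining female nuclei alone *Pdk4* was at 0.43, under 2-fold, *Cebpb* at 1.33 and *Pank1* at 1.09.

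Other genes were higher in negative nuclei. *Slc7a10* had 17 UMIs in 7 of 48 negative nuclei (14.6%), 14 female and 3 male, and 0 UMIs in the 58 positive nuclei, which allows up to 5.17% of nuclei with a UMI at this depth and makes its level at least 9.96-fold lower there, with a floor of 3 UMIs over the group. It had 8 and 0 UMIs without the nuclei of another type. *Cyp2e1*, a cytochrome P450, had 33 UMIs in 12 negative and 7 UMIs in 5 positive nuclei (log2 ratio -2.97, -4.47 to -1.85). *Tmem45b*, a membrane protein gene, had 127 UMIs in 23 negative and 28 in 14 positive nuclei (-2.97, -3.64 to -2.40), with up to 31 in 1 nucleus. Its ratio was -1.87 without the nuclei of another type, with 65 and 25 UMIs. *Trabd2b*, the lowest by ratio among genes with at least 30 UMIs in the group, had 29 UMIs in negative and 3 in positive nuclei (-3.89, -6.45 to -2.40). *St6galnac5*, *Slc4a10*, *Col3a1*, *B3galt1*, *Gnal* and *Ids* followed at -2.95 to -2.09, but *Col3a1* was at -0.69 with 7 and 8 UMIs without the nuclei of another type. *Slc7a10* lies on chr7:35186385-35201114 (plus strand, overlapping *Lrp3* on the opposite strand), *Cyp2e1* on chr7:140763739-140774987 (plus strand) and *Tmem45b* on chr9:31426196-31464462 (minus strand, with 2 annotated genes on the same strand inside it).

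As a list, lipid synthesis genes lay near the median of all genes, with 0 of 21 at least 2-fold higher and 3 lower and a median of -0.07. The 3 were malic enzyme (*Me1*, which supplies NADPH, -1.92), pyruvate carboxylase (*Pcx*, -1.12) and *Srebf1*, the factor that turns on fatty acid synthesis (-1.38). *Acly*, at -0.98, also passed 2-fold once the nuclei of another type were left out (-1.13, 20 and 31 UMIs). The share of the list at 2-fold was 14.3% with those nuclei and 19.0% without them, near the 11.1% and 15.7% of all genes. *Acaca*, the first enzyme of fatty acid synthesis, was at 10.4 per 10000 in positive and 20.5 in negative nuclei (-0.98, -1.21 to -0.76), and at -1.43 among female nuclei. The growth hormone receptor *Ghr* was at 13.5 and 29.4 per 10000 (-1.12, -1.32 to -0.93). It was higher in the negative nuclei among females alone as well (-1.14), and its intervals, which cover counting error only, exclude 0 in both cases. But *Ghr* had a UMI in 89.7% of positive and 91.7% of negative nuclei, or 67.2% and 77.1% when thinned. The most in 1 nucleus was 28 UMIs among positive and 70 among negative nuclei. *Irs1*, which relays the insulin signal, was at -0.93, but at -0.31 (60 and 52 UMIs) without the nuclei of another type. The fatty acid carrier *Slc27a1* was at -1.29, and the growth hormone target *Igf1* at -2.24 with 6 and 17 UMIs, or -1.58 without those nuclei.

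The other lists are read beside the median of all genes, -0.02. Lipolysis and lipid droplet genes had 0 of 12 at least 2-fold in either direction (median -0.07), transcription factors 1 of 15 higher, *Cebpb*, and 2 lower, among them *Srebf1* (0.03), and insulin and adrenergic signalling 1 of 16 higher, *Ffar4*, and 1 lower, *Ghr* (-0.14). Uptake genes had 1 of 9 higher, *Slc2a4*, and 1 lower, *Slc27a1* (0.49), adipokines 1 of 5 lower, *Igf1* (-0.27), and white adipocyte genes 1 of 5 higher (0.45), *Npr3*, with 46 and 8 UMIs at 1.64. *Adrb3* was at 1.34 and 1.88 per 10000 in positive and negative nuclei (-0.50), and *Ucp3* at 0.635 and 0.235 (1.30, -0.15 to 3.45). The 2 progenitor genes had a median of -0.58. When the nuclei of another type were left out, *Ffar4* (0.84) was under 2-fold. *Abhd5* (-1.20, 16 and 26 UMIs), *Pik3r1* (-1.26, 42 and 71) and *Cd55* (-1.13, 7 and 11) were then past 2-fold on the negative side, and *Angptl4* (1.02, 27 and 9) and *Nr1h3* (1.07, 13 and 4) on the positive side. Over all genes the share at 2-fold in either direction was 11.1% with these nuclei and 15.7% without them.

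Of the 15 genes that led the positive side, 10 were at higher levels in other nuclei than in the group. *Frmd4a* (2.69) and *Lrp1b* (2.57), large genes of neurons and other cells, had log2 ratios of -1.75 and -1.91 between adipocyte-type and other nuclei. Others of the 10 were *Gpr158*, *Plcxd3*, *Npas3*, *Gfra1*, *Sorcs1*, *Reln* and *Cdh11* (2.10 to 2.36). Without the nuclei of another type *Npas3* turned to -0.51 with 3 and 3 UMIs, *Sorcs1* was at 0.44, *Cdh11* at 0.23 and *Gfra1* at 1.14. *Frmd4a* (3.40, 112 and 7 UMIs) and *Lrp1b* (3.47, 118 and 7 UMIs) were then further apart. *Gpr158* had 25 and 0 UMIs, *Reln* 7 and 0, and *Plcxd3* was at 2.24. The genes of that side that were also higher in the group than elsewhere were *Actn2*, an actinin of striated muscle (3.09, 37 and 2 UMIs), *Cabcoco1* (2.45, 33 and 3 UMIs), *Tbc1d15* (2.21, or 1.54 without those nuclei), *Cdh13* (2.25, or 1.60 without them) and the noncoding *A530065N20Rik* (2.05, 105 and 14 UMIs). *Cdh13* was no longer higher in the group than elsewhere once the nuclei of another type were left out (-0.07). *A530065N20Rik* had a UMI in 70.7% of positive and 22.9% of negative nuclei, or 25.9% and 2.08% when thinned. Its overlap with a gene on the same strand makes the split of its reads uncertain.

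Markers of other cells moved with this division. All 5 endothelial markers had a UMI in both sets and summed to 4.54 per 10000 in positive and 2.11 in negative nuclei, with *Flt1* the most abundant (1.06, or -0.08 without the nuclei of another type). The mural list was at 2.27 and 0.763, with *Rgs5* leading (1.79, or 0.77 without those nuclei) and *Abcc9* at 0 in negative nuclei, and the Schwann list at 8.02 and 4.93, with *Ncmap* at 0 in negative nuclei. The barrier fibroblast list went the other way, 0.434 and 1.76, with *Slc22a6* at 0 in both and *Slc13a4* at 0 in positive nuclei. So did the neuronal list, at 9.39 and 13.9, with all 5 genes seen. Among female nuclei alone the neuronal list was at 8.97 and 10.1, with overlapping intervals (7.87 to 10.2 and 8.14 to 12.3). Among male nuclei it was at 12.9 and 18.7, with overlapping intervals as well, and the negative nuclei held more males. The fibroblast list was at 4.31 and 4.87, the macrophage list at 0.969 and 1.06 and the satellite glia list at 10.1 and 9.33. The pituitary list was at 1.17 and 1.23, and the cerebellar granule list at 0.301 and 0.0587, from 9 and 1 UMIs. Their part in the gene differences was not tested.

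**Figure D4:**
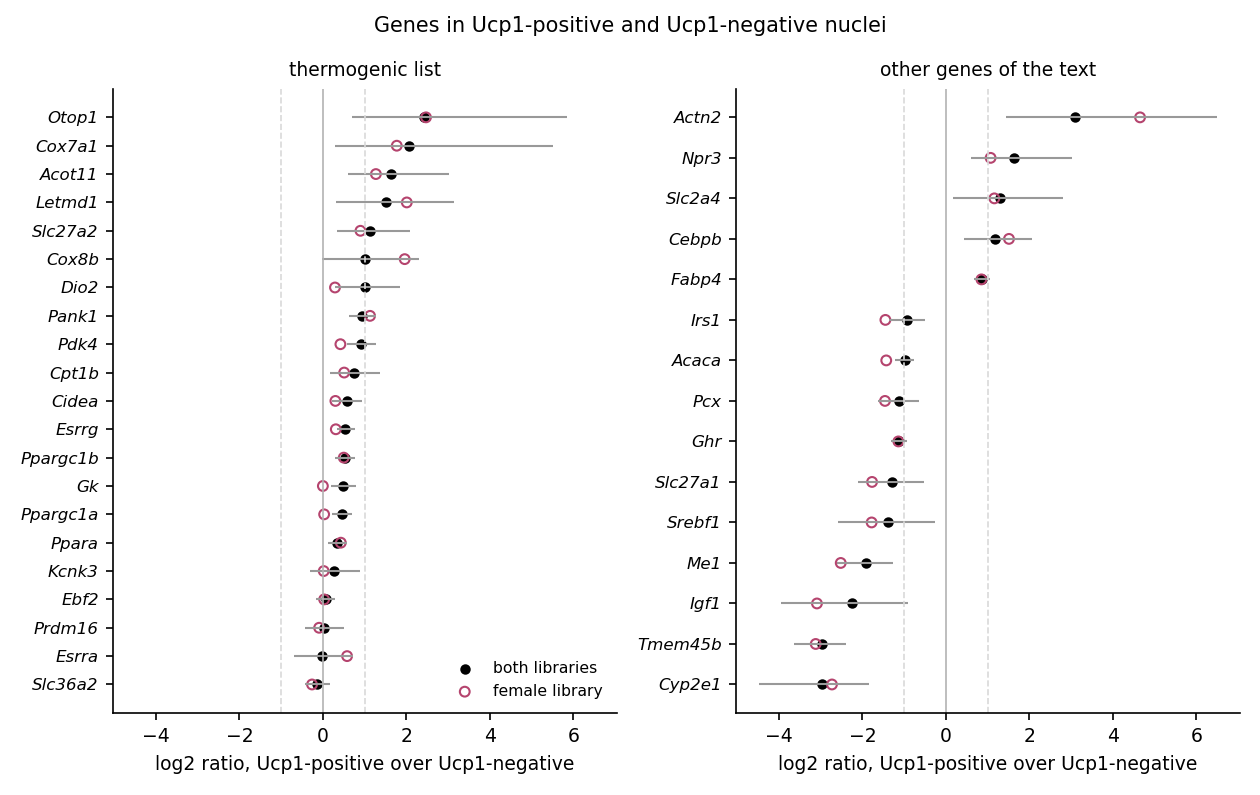
Log2 ratio of *Ucp1*-positive over *Ucp1*-negative nuclei for the 21 thermogenic genes (left) and 15 further genes of the text (right). Filled points with exact 95% intervals are both libraries, open points the female library, and dashed lines mark 2-fold; *Otop1* is highest on the left at 2.42, and *Tmem45b* and *Cyp2e1* lie lowest on the right at -2.97.

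The adipocyte-type nuclei of the 2 libraries were compared last. Of the thermogenic genes 7 of 21 and of the lipid synthesis genes 4 of 21 were at least 2-fold higher in the female library, and 0 of either list were lower. These shares, 33.3% and 19.0%, stand beside the 18.6% of all genes that were 2-fold apart in either direction. Of 5089 genes with at least 20 UMIs over both, 470 (9.24%) were at least 2-fold higher and 476 (9.35%) at least 2-fold lower in the female nuclei, with a median log2 ratio of -0.01. The chosen genes, held to the same threshold in both libraries, ranged from -0.12 to 0.44, with *Adipoq* at 1.26 (32 and 4 UMIs) once the nuclei of another type were left out. The median of the 21 thermogenic genes, *Ucp1* again left out, was 0.51 (-0.62 to 4.10).

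Type 2 deiodinase (*Dio2*), which makes active thyroid hormone in brown fat, had 86 UMIs in 40 of 79 female nuclei and 1 UMI in 1 of 27 male nuclei. Its levels were 2.38 and 0.0928 per 10000 (log2 ratio 4.10, 2.16 to 10.00), and 0.0445 and 0.0117 outside the group (1.92). *Gk*, on the X chromosome, was at 12.4 and 2.13 per 10000 (2.51, 1.94 to 3.21), *Ppargc1a* at 17.9 and 5.48 (1.69, 1.32 to 2.11) and *Pdk4*, which spares glucose by blocking pyruvate oxidation, at 9.84 and 2.97 (1.71, 1.20 to 2.30). The ratios outside the group were smaller, at 0.35 for *Gk*, 0.59 for *Ppargc1a* and 1.18 for *Pdk4*. *Otop1* (24 and 1 UMIs), *Acot11* (50 and 4) and *Slc27a2* (65 and 9) completed the 7, and for *Slc27a2* the ratio outside the group (2.23) was above that inside (1.04). *Cidea* (0.26), *Ppara* (-0.15), *Prdm16* (0.16), *Ebf2* (0.05) and *Slc36a2* (-0.05) had ratios between -0.15 and 0.26. Without the nuclei of another type *Cidea* (1.03), *Cpt1b* (1.15, from 0.51) and *Esrrg* (1.39, from 0.77) passed 2-fold, which made 10 of 21, and the signs of *Ppara* (0.32, 451 and 119 UMIs) and *Slc36a2* (0.34, 228 and 59 UMIs) turned.

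**Figure D5:**
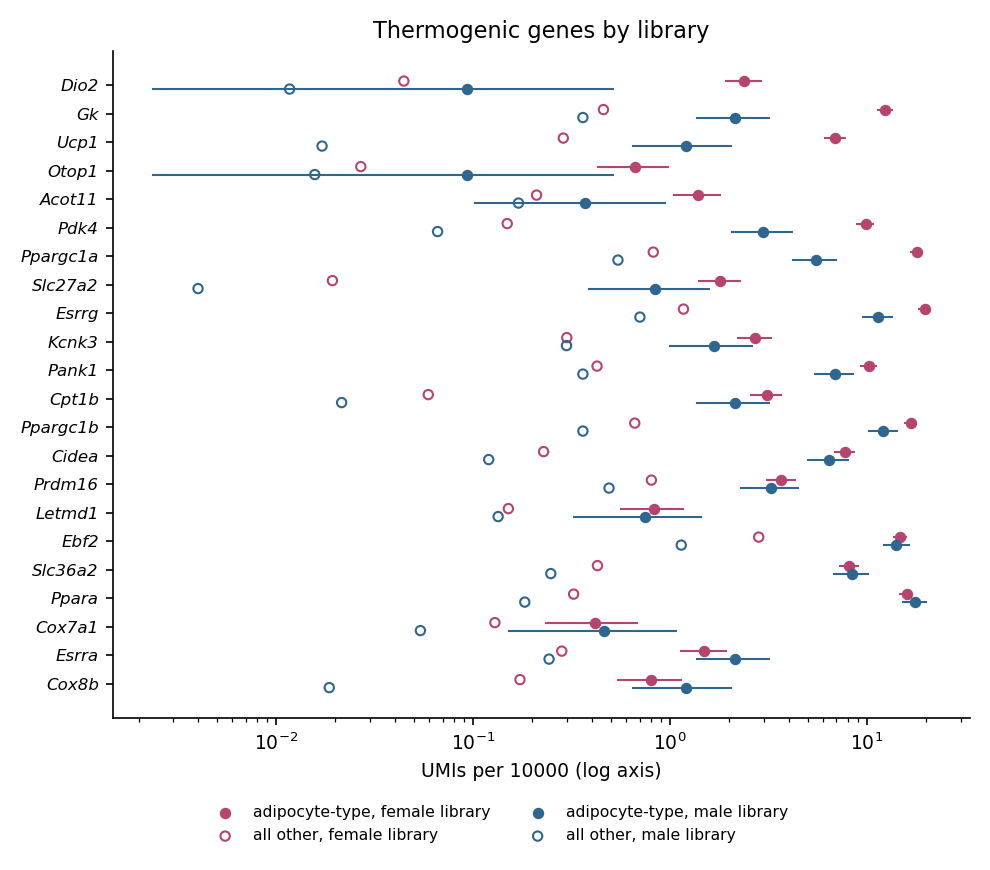
Levels of 22 thermogenic genes in UMIs per 10000 on a log axis, in order of the female over male ratio. Filled points with exact Poisson 95% intervals are the adipocyte-type nuclei, and open points all other nuclei of the same library; the female level of *Dio2*, 2.38, lies far above the male level, 0.0928, whereas those of *Ppara* are 15.9 and 17.5.

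Lipid synthesis genes had 4 of 21 higher in the female nuclei and 0 lower (median 0.33): the elongase *Elovl6* (9.37 and 2.32 per 10000, 1.99, 1.43 to 2.66), fatty acid synthase (*Fasn*, 1.36), *Gpam* (1.31) and *Acacb* (1.14). Outside the group the ratios of *Elovl6* and *Fasn* were -0.07 and -0.15. *Fasn* was at 0.89, under 2-fold, and *Gpd1* at 1.01 (197 and 32 UMIs, from 0.78) without the nuclei of another type. The share of the list at 2-fold was 19.0% with and without those nuclei, near the 18.6% and 23.7% of all genes. *Npr3* was higher as well (2.13, 51 and 3 UMIs), as were *Irs2* (1.18), *Slc27a1* (1.09, or 0.81 without those nuclei) and *Cpt2* (1.23, with an interval of -0.28 to 3.79). Lower in the female nuclei were *Igf1* (-1.39), *Sncg* (-1.50) and *Fabp5* (-1.36), and for the last pair the ratio outside the group was also below 0 (-0.96 and -1.13). *Ghr* was at 16.7 and 27.8 per 10000 (-0.74, -0.94 to -0.53), with up to 65 UMIs in 1 female and 70 in 1 male nucleus.

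The remaining lists are read beside the 18.6% of all genes that were 2-fold apart in either direction. Lipolysis and lipid droplet genes had 0 of 12 (median 0.20), transcription factors 1 lower of 15 (-0.00), and insulin and adrenergic signalling only *Irs2* of 16 (0.14). Uptake genes had *Slc27a1* higher and *Fabp5* lower of 9 (0.34), adipokines *Igf1* lower of 5 (-0.28), white adipocyte genes *Npr3* higher and *Sncg* lower of 5 (0.56) and mitochondrial oxidation only *Cpt2* of 23 (0.12). The 2 progenitor genes had a median of 0.46, and *Ucp3* was at 0.80. When the nuclei of another type were left out, the share over all genes was 23.7%, and the adipokine median turned to 0.14. *Adra1a* (1.03, 200 and 32 UMIs), *Thrb* (1.15, 312 and 46), *Slc2a4* (1.12, 29 and 4), *Plin5* (1.95, 17 and 1) and *Nnat* (1.04, 15 and 2) were then past 2-fold on the female side. *Fitm2* (-1.29, 10 and 8), *Nr1h3* (-1.11, 10 and 7) and *Lepr* (-1.31, 5 and 4) were past it on the male side.

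Among genes with at least 30 UMIs in the group, the highest female ratio was that of the early response factor *Nr4a1*, with 41 UMIs in 27 of 79 female and 0 UMIs in 27 male nuclei, which is at least 4.07-fold higher with a floor of 3 UMIs. Its share was 13.9% when thinned, and a count of 0 in 27 nuclei allows up to 11.1% of nuclei with a UMI. The chemokine scavenger receptor *Ackr3* had 38 UMIs in 26 female and 0 in male nuclei (at least 3.77-fold), and *Dnajc11*, a mitochondrial membrane protein, 35 and 0 (at least 3.47-fold). Outside the group these 3 genes had log2 ratios of 0.18, 0.80 and 0.16. Prolactin (*Prl*), a pituitary hormone, had 40 and 0 UMIs, but its ratio outside the group was 3.88. *Kcnd2* (162 and 3 UMIs, 18 and 2 nuclei) also had a ratio well above 0 outside it (2.64). *Olfm3* (37 and 0), *Lrrtm4* (31 and 0), *Ntm* (66 and 1) and *Il1rapl1* (63 and 1) completed the 10 genes with the highest ratios beside *Dio2*. Without the nuclei of another type *Olfm3* had 3 and 0 UMIs, *Il1rapl1* 8 and 1 (0.91), *Ntm* 13 and 0 and *Kcnd2* 50 and 3 (2.25).

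The lowest female over male ratios included neuronal genes. The neurotrophin receptor *Ngfr* had 12 female and 29 male UMIs (-2.99), the tubulin *Tubb2b* 15 and 31 (-2.77), and *Tac1*, the precursor of substance P, 22 and 32 (-2.28). Outside the group the ratios were -0.99, -1.08 and -0.73. Without the nuclei of another type *Ngfr* was at -2.80 (8 and 19 UMIs), *Tubb2b* at -2.96 (9 and 24) and *Tac1* at -2.20 (15 and 23). The other 7 of the 10 lowest ratios, of *Frmpd4*, *Klhdc2*, *Tmx3*, *Rpl36a*, *Tspan8*, *Cd24a* and *Parm1*, lay between -2.35 and -2.13. The neuronal marker list was at 9.26 and 17.0 per 10000 in female and male adipocyte-type nuclei, and 19 of 79 female against 10 of 27 male nuclei passed for another type. The endothelial list was at 4.26 and 1.67, with *Emcn* at 0 in males, the Schwann list at 7.41 and 5.20, with *Ncmap* at 0 in males, and the fibroblast list at 4.34 and 5.10, with *Scara5* at 0 in males. The mural list was at 1.91 and 1.11, the macrophage list at 1.13 and 0.557, the barrier fibroblast list at 0.829 and 1.21, the pituitary list at 1.44 and 0.371 and the cerebellar granule list at 0.276 and 0. Their part in the differences between the libraries was not tested. Without the nuclei of another type, *Dio2* (54 and 1 UMIs, 3.59), *Gk* (2.36), *Ppargc1a* (1.72) and *Nr4a1* (30 and 0 UMIs) were at least 2-fold higher in the female library.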

How the data were processed

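Nuclei of pooled vagus nerve ganglia were sequenced on the 10x Genomics platform, 1 library from females and 1 from males. As deposited by the authors, the values are raw UMI counts in 1 matrix of genes and nuclei, made with Cell Ranger 7.1.0 (per the file headers) on mm10 with an added transgene sequence, introns included; barcodes and gene names were deposited beside it. They kept barcodes by the DIEM debris score, more than 250 genes and more than 1000 UMIs, though 19 deposited nuclei hold fewer than 1000. cellranger aggr had then evened out the libraries' mapped reads, so that the deposited counts are not all those sequenced. No source used here names the annotation release. Gene coordinates were taken from GENCODE M21, which is on the same build and matched 32158 of 32286 features.

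The members and gene lists were chosen with earlier results of these data known. UMIs were summed over nuclei and divided by the summed total (per 10000). Levels carry exact Poisson intervals, shares Clopper-Pearson intervals and ratios exact conditional binomial intervals, all at 95% and for counting error only, since UMIs of a nucleus are not independent samples. Log2 ratios had 0.5 UMIs added to both sums, and folds are the same ratios on a linear scale. A gene at 0 was set at a floor of 3 UMIs per group. A share of 0 was likewise limited at 3 nuclei of the group, not by a Clopper-Pearson interval. The upper ends of that interval were 6.16% for 58 nuclei and 12.8% for 27. With 1 library per sex no test was made; a gene was counted when at least 2-fold apart, with at least 20 UMIs. *Xist*, *Tsix* and Y-linked genes were left out of the counts between libraries.

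Named genes were the 25 highest over other nuclei (at least 50 UMIs and 4-fold in each library) and the 10 lowest; the 15 highest and 10 lowest in *Ucp1*-positive nuclei and the 10 highest and 10 lowest in females (at least 30 UMIs); and examples from 12 gene lists, of which 1 gene was not among the features. Some genes that these rules select are not reported here. A nucleus passed for another type with at least 5 UMIs of its 5 markers and at least 20 per 10000. Nuclei under 1000 UMIs were left out of thinned shares. Ratio intervals were tested on simulated data. Python 3.11.15, numpy 2.4.6, scipy 1.17.1 and pandas 2.3.3 were used. Alternatives changed the thresholds and genes of the choice, the depth, the minimum of UMIs, the summary over nuclei, the library and the nuclei of another type; counts of the gene lists without those nuclei, over the same genes, were added after seeing the data.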

Additional observations from a re-analysis of the deposited data

How the results depend on the processing

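With 1 library per sex, leaving out a replicate was not possible, and intervals cover counting error only; a male value rests on 107742 UMIs. No paired analysis was possible because the labels give no replicate numbers and each sex is 1 library. Of 83 values under 17 settings, 49 stayed within the interval or within 1.5 times the count, 33 did not, and 1 turned its sign; the cause was not tested.

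The share of adipocyte-type nuclei, 2.08% of female and 0.548% of male nuclei, was 0.686% and 0.0609% without *Pparg*, 1.58% and 0.345% without nuclei of another type, and 1.35% and 0.345% when nuclei were thinned before the choice; at 40 per 10000 the female share was 1.5%. With at least 50 UMIs per gene, 633 genes were higher and 603 lower than in other nuclei (1114 and 1172), 69 and 65 in *Ucp1*-positive nuclei (277 and 286) and 179 and 136 in females (470 and 476). With no minimum but 1 UMI these were 3529 and 3703, 2087 and 2725, and 2168 and 3450. Among male nuclei alone 415 genes were higher and 334 lower than in other nuclei. Thinned to 1000 UMIs, 59 and 61 genes differed between *Ucp1*-positive and *Ucp1*-negative nuclei.

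*Ucp1*, at 5.60 per 10000 and in 54.7% of nuclei, was at 4.62 and 30.2% when thinned, 6.91 and 65.8% in females and 1.21 and 22.2% in males. Its log2 female over male ratio of 2.47 was 3.59 without nuclei of another type and -1.59 after subtracting the ratio in other nuclei, an alternative chosen after seeing the data. The thermogenic median between *Ucp1*-positive and *Ucp1*-negative nuclei, 0.57, was 0.43 in females, 0.70 without nuclei of another type, with the minimum of UMIs applied anew, and 0.72 from means over nuclei.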
